A study of Homo sapiens with 6 samples.

Results

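The genes described here are HMOX1, NQO1, SRXN1 and TXNRD1, 4 antioxidant genes that are textbook targets of the transcription factor NRF2. They were chosen by probe identifier, 1 probe for each gene, so 4 of the 47231 probes and 4 of the 20046 named genes of the array are the members. The platform's annotation table gave each of the 4 probes the expected gene symbol.

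Total RNA of SK-Hep1, an adherent human line labelled as hepatocellular carcinoma, was labelled with biotin and hybridised to Illumina Human-HT12 BeadChips, which carry probes on beads and are read in 1 colour. There were 3 arrays labelled siLuc, marked as control, and 3 labelled siTARDBP, in which TARDBP was knocked down. TARDBP encodes TDP-43, an RNA-binding protein that acts in splicing and RNA stability. The labels name no genotype change and no other agent, and neither the time of knockdown nor the siRNA sequences were found in them. Whether the 3 samples of each group were grown separately is not stated. The p-values below therefore reflect the spread among these samples alone, and that spread may be technical.

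NRF2, encoded by NFE2L2, is held in the cytoplasm by KEAP1, which passes it to a CUL3 ubiquitin ligase for degradation. Oxidants and electrophiles modify KEAP1, NRF2 then enters the nucleus, pairs with a small MAF protein and binds antioxidant response elements, while BACH1 competes for the same elements and represses HMOX1 in particular. In liver this pathway serves the detoxification of drugs and reactive metabolites, and it is often active in liver tumours. HMOX1 is heme oxygenase 1, which breaks heme down to biliverdin, iron and carbon monoxide. NQO1 reduces quinones, SRXN1 is sulfiredoxin, which repairs over-oxidised peroxiredoxins, and TXNRD1 is the cytosolic thioredoxin reductase that keeps thioredoxin reduced with NADPH.

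The targeted gene was lower in all siTARDBP arrays. The TARDBP probe ILMN_1677532 had deposited intensities of 265, 214 and 203 units in siLuc and 136, 84.0 and 96.5 in siTARDBP, with no overlap. On the log2 scale siTARDBP minus siLuc was -0.99 (standard error 0.11, 1.98-fold lower), with a limma adjusted p of 1.6e-05. The probe exceeded the array's background level on 2 of 3 siTARDBP arrays, so the fall may be larger than this value. In 18 other processing settings the log2 difference ranged from -1.25 to -0.92.

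The median deposited intensity per array lay between 64.4 and 83.0 units, and the estimated background level, under which 95% of unbound signal would lie, between 81.7 and 128 units. Probes brighter than this level on 3 or more of the 6 arrays were compared between groups, 15201 in all. In limma, with Benjamini-Hochberg adjustment over all tested probes and a threshold of 0.05, 1695 (11.2%) were called, 887 (5.84%) higher and 808 (5.32%) lower in siTARDBP. Higher probes made up 52.3% of the calls, and 27.8% under scaling of arrays to a common median over all probes. The arrays numbered 2 of both groups had a lower background than the other 4, and values of the members are given within each background class. The labelled liver origin was checked against 10 hepatocyte markers with a probe. Probes of 2 of them, ALB and SERPINA1, exceeded background on at least 3 arrays, and those of APOA1, APOA2, APOB, APOH, TTR, FGB, TF and AHSG did so on no array. ALB was near background, at 110 to 139 units, against 374 to 665 for SERPINA1. Of 2 fetal liver and liver tumour markers, 0 were measured on enough arrays: AFP exceeded background on 2 arrays and GPC3 on 0. Of the other lists, 3 of 6 mesenchymal markers (VIM, CDH2 and SPARC) and 4 of 5 epithelial markers (EPCAM, KRT8, KRT18 and KRT19) were. The epithelial CDH1 and the mesenchymal FN1 exceeded background on no array, COL1A2 on at most 1 and COL1A1 on 2. EPCAM was near background, at 106 to 134 units. In the remaining lists, 0 of 5 endothelial markers and 2 of 4 macrophage markers (CD68 and CD14) were measured on enough arrays. CD68, which is also a general lysosomal protein, was the 1 marker past the threshold and was lower by a log2 difference of -0.66 (limma adjusted p = 0.0013), while PTPRC and CD163 exceeded background on no array.

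**Figure D1:**
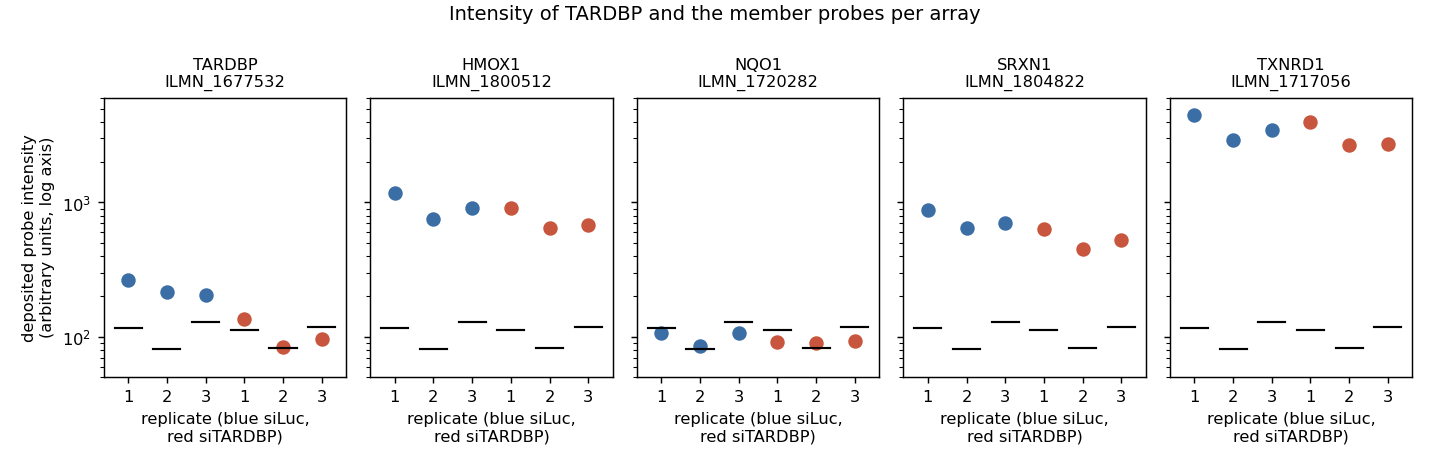
Deposited probe intensity (arbitrary units, log axis) of TARDBP and the 4 member probes on each of the 6 arrays, 3 siLuc in blue and 3 siTARDBP in red, with a black line at each array's background level. SRXN1 lies lower on the siTARDBP arrays without overlap, and NQO1 exceeds its background line on 1 array of each group.

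After TARDBP knockdown SRXN1 was lower by 1.24-fold and was the 1 member that passed the threshold, narrowly. HMOX1 had a smaller difference in the same direction, and NQO1 was too dim to be compared. The TXNRD1 member probe was close to 0 (log2 difference -0.051). The other tested TXNRD1 probe pointed up (0.22), and neither was past the threshold. Of the 4 members, 3 passed the filter on dim probes and 1 of these was past the threshold as lower, against 5.32% of all tested probes that were past it as lower.

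SRXN1 was lower in every siTARDBP array. The probe ILMN_1804822 had intensities of 877, 647 and 703 units in siLuc and 637, 447 and 527 in siTARDBP. The groups did not overlap, and the gap between the dimmest siLuc and the brightest siTARDBP array was narrow. A complete separation of this kind was seen on the normalised scale for 29.4% of all tested probes. After normalisation the levels were 9.58, 9.47 and 9.40 on the log2 scale in siLuc and 9.14, 9.13 and 9.26 in siTARDBP. SRXN1 thus fell by 0.31 on the log2 scale, with a standard error of 0.095 and a 95% confidence interval from -0.51 to -0.11 (limma adjusted p = 0.045). It was -0.29 over the 4 arrays with higher background, and -0.35 between the 2 arrays with lower background, 1 per group. The direction was the same in all 19 other processing settings, but the adjusted p stayed under 0.05 in 5 of them and rose to as much as 0.19. Leaving out any single array moved it above 0.05, to between 0.051 and 0.16.

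The promoter window of SRXN1 is shown because SRXN1 was the member past the threshold and because NRF2 acts through letters in the DNA near its targets. Windows run from 250 bases before to 50 bases after a gene's start, from RefSeq (GRCh38.p14), and 3 of the 4 genes had at least 1. The core antioxidant response element was searched as TGANNNNGC on both strands, where N is any base, and in its stricter form TGACNNNGC, whose matches all lie within the former. The core motif occurs in 41.8% and the stricter form in 13.3% of all 35116 windows of this length, so a match is common. The SRXN1 window, chr20:653151-653450 on the minus strand, is 80.0% G and C and holds no match, which says only that these letters are not in these 300 bases.
SRXN1: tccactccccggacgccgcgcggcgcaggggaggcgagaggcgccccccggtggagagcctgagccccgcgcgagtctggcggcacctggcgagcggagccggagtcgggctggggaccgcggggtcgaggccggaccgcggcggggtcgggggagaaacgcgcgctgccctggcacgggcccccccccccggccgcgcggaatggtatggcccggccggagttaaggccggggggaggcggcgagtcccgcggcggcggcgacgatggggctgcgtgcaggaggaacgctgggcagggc

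HMOX1 was lower after normalisation by an amount that did not pass the test. The probe ILMN_1800512 had intensities of 1178, 756 and 903 units in siLuc and 910, 648 and 684 in siTARDBP, and the groups overlapped on this scale. Normalised levels were 9.999, 9.71 and 9.76 in siLuc and 9.66, 9.64 and 9.64 in siTARDBP. Here the groups lay apart, with siLuc replicate 1 well above the other 5 arrays and the siTARDBP arrays within a very narrow range. Means differed by -0.17 on the log2 scale (standard error 0.099, 1.13-fold lower), with a limma adjusted p of 0.29. Its 95% confidence interval ran from -0.38 to 0.036, so these arrays leave room for a fall of up to 1.30-fold. Without siLuc replicate 1 the difference was -0.085. It was -0.23 in the higher and -0.068 in the lower background class.

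The TXNRD1 probe ILMN_1717056 was well above background on all arrays and showed no difference beyond the spread between arrays. Its intensities were 4482, 2904 and 3476 units in siLuc and 3960, 2678 and 2737 in siTARDBP, and the groups overlapped both before and after normalisation. Replicate 1 was the highest array within each group. Its log2 difference of -0.051 had a standard error of 0.11 (limma adjusted p = 0.82) and a 95% confidence interval from -0.28 to 0.18. Without siLuc replicate 1 the value was 0.057. It was -0.085 in the higher and 0.018 in the lower background class.

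A further TXNRD1 probe, ILMN_2324421, was measured on all arrays and pointed the other way. It had intensities of 3031, 2047 and 2152 units in siLuc and 3763, 1884 and 2047 in siTARDBP, with siTARDBP replicate 1 above all other arrays. For this probe siTARDBP minus siLuc was 0.22 on the log2 scale (standard error 0.14, 95% confidence interval from -0.076 to 0.52, limma adjusted p = 0.35). The difference was 0.30 in the higher and 0.056 in the lower background class. Within each array, the log2 level of this probe minus that of ILMN_1717056 averaged -0.60 ± 0.085 over the 3 siLuc arrays and -0.33 ± 0.21 over the 3 siTARDBP arrays (± SD). In the order of replicates this offset was -0.59, -0.52 and -0.69 in siLuc and -0.082, -0.48 and -0.42 in siTARDBP. The arrays numbered 2, of the lower background class, thus differed little. The mean offset differed by 0.27 between the groups, with no overlap. An exact two-sided permutation test gave p = 0.10, the smallest that 3 arrays against 3 allow. Which transcripts the probes read was not analysed here.

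RefSeq lists TXNRD1 with 2 start sites. Both windows are shown because this gene has motif matches near each start and 2 tested probes with differences of opposite sign, neither past the threshold. A core match occurs in 41.8% of all windows, and the probes were not matched to the starts. Which start was in use was not tested. Matches to the core motif are in capitals. The window at chr12:104215529-104215828, plus strand, holds 2 matches, both of the stricter form, whose first bases lie at -99 and -8 relative to the start site. The window at chr12:104286782-104287081, plus strand, holds 2 matches, at -198 and -102, of which the latter is of the stricter form.
TXNRD1 upstream start: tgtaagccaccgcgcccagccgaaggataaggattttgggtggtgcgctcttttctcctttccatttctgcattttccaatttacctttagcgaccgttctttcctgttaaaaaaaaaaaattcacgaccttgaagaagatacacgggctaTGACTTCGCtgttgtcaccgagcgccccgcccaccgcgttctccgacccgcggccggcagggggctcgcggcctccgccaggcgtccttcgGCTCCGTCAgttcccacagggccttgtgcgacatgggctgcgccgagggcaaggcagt
TXNRD1 downstream start: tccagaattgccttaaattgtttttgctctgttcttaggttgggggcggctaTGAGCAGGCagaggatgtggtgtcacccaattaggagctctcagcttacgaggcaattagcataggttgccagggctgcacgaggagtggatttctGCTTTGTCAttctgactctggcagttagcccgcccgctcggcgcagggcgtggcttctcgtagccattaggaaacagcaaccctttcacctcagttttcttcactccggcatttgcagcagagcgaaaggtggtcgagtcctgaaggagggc

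NQO1 was at or near background in these cells. The probe ILMN_1720282 had intensities of 107, 86.1 and 107 units in siLuc and 91.0, 89.9 and 92.8 in siTARDBP. It exceeded the background level on 1 of 3 arrays in each group, those numbered 2, and so was not tested. The other NQO1 probe, ILMN_2354953, lay between 59.0 and 76.8 units and exceeded background on no array. The normalised log2 values of ILMN_1720282 averaged 6.82 ± 0.0048 over the 3 siLuc arrays and 6.74 ± 0.15 over the 3 siTARDBP arrays (± SD), and the groups overlapped. The difference was -0.17 in the higher and 0.094 in the lower background class. A fall of NQO1 was therefore not detectable at this signal, and a small rise could be missed as well. The siTARDBP intensities lay within the siLuc range of 86.1 to 107 units. Its promoter window holds 1 match to the core motif and 0 to the stricter form. As for SRXN1, this covers only 300 bases, and a core match is common among all windows.

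**Figure D2:**
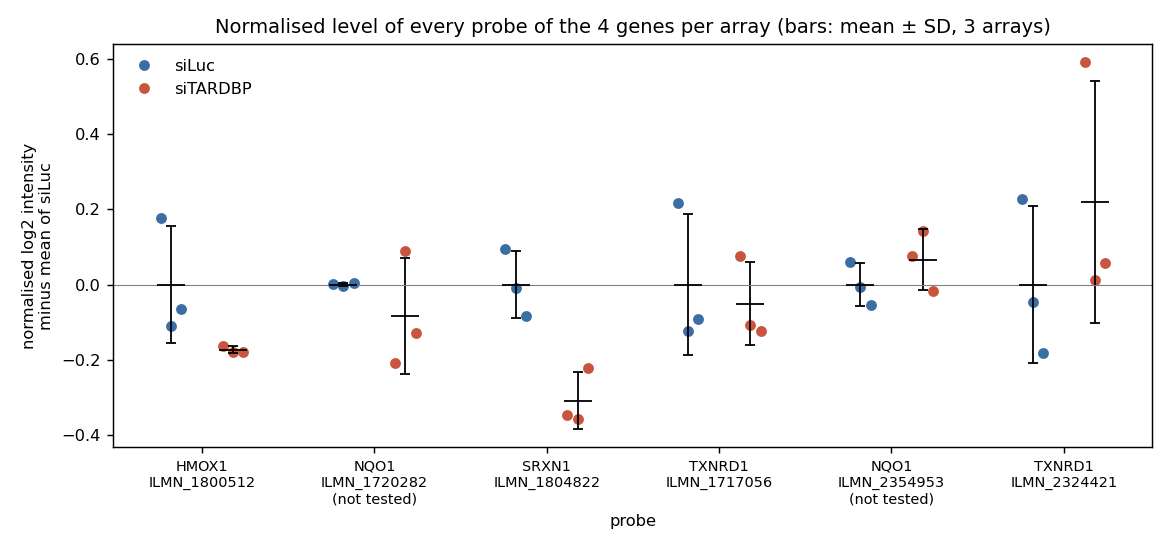
Normalised log2 intensity of all 6 probes of the 4 genes on each array, minus the mean of the 3 siLuc arrays, with siLuc in blue, siTARDBP in red and black bars for mean ± SD over 3 arrays. The SRXN1 groups are apart, the HMOX1 siTARDBP arrays sit just under the lowest siLuc array, and the TXNRD1 probes have differences of -0.051 and 0.22.

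Whether the tested members changed unequally was asked by their differences within each array. The log2 change of SRXN1 was 0.14 further down than that of HMOX1, and its level relative to TXNRD1 (ILMN_1717056) changed by -0.26. The level of HMOX1 relative to TXNRD1 changed by -0.12. Exact two-sided permutation tests of these 3 pairs gave p = 0.20 for both pairs with SRXN1 and p = 0.10 for HMOX1 against TXNRD1, 0.20 in each case after Benjamini-Hochberg adjustment. With 3 arrays per group no value under 0.10 was possible, so unequal change among the members was neither shown nor set aside.

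The regulators of the pathway were measured unevenly. NFE2L2, which encodes NRF2, had intensities of 2033, 1723 and 2108 units in siLuc and 1898, 1698 and 1514 in siTARDBP (ILMN_1790909). The groups overlapped, and the log2 difference was -0.0037 with a 95% confidence interval from -0.22 to 0.21 (limma adjusted p = 0.99). An mRNA level says nothing about NRF2 protein, which is controlled mainly by its degradation. The KEAP1 probes ILMN_2410771 and ILMN_2410772 had log2 differences of 0.11 and 0.12 with 95% confidence intervals from -0.095 to 0.31 and from -0.082 to 0.33 (limma adjusted p = 0.52 and 0.47). A further KEAP1 probe and the BACH1 probe exceeded background on no array.

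MAFG, a small MAF protein that partners NRF2 and also BACH1 on the element, rose. Its brighter probe ILMN_1692260 had intensities of 238, 172 and 174 units in siLuc and 339, 229 and 258 in siTARDBP. The deposited values overlapped, since siLuc replicate 1 lay between the siTARDBP arrays, and after normalisation the groups were apart. The rise was 0.57 on the log2 scale (standard error 0.10, 1.48-fold), with a limma adjusted p of 0.0014. The other tested probe of MAFG, ILMN_2412761, had a log2 difference of 0.72 (limma adjusted p = 0.0015). The call on ILMN_1692260 held in all 19 other settings. MAFF, another small MAF protein, named here after its values were seen, had 3 tested probes with log2 differences of -0.049, -0.019 and -0.043 (limma adjusted p = 0.83, 0.94 and 0.83).

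The wider pathway was read from 87 genes in 7 lists, of which 79 had a named probe and 56 were tested, each through its brightest tested probe. In these, 5 passed the threshold (8.93%), 3 higher and 2 lower, against 11.8% of all 9340 genes tested in the same way, 5.44% higher and 6.36% lower. In this setting the share of pathway genes was not above that of all genes. The count of pathway genes past the threshold ranged from 0 to 7 in the other settings. The median log2 difference of the 56 genes was -0.0048 against -0.022 for all tested genes, with 27 above 0 and 29 below it.

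Besides MAFG, the genes past the threshold were GSS, CYP1B1, BLVRB and ABCB6. GSS is glutathione synthetase, which completes glutathione, and its intensities were 435, 352 and 351 units in siLuc and 527, 376 and 456 in siTARDBP. It rose by 0.37 on the log2 scale (standard error 0.098, limma adjusted p = 0.022), with groups that overlapped before and lay apart after normalisation. CYP1B1 is a cytochrome P450 known chiefly as a target of the aryl hydrocarbon receptor, and it had 203, 128 and 162 units in siLuc and 237, 199 and 184 in siTARDBP. It rose by 0.41 (standard error 0.11, limma adjusted p = 0.021), again apart only after normalisation.

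The genes that fell were BLVRB and ABCB6. BLVRB is biliverdin reductase B. Its intensities were 681, 639 and 767 units in siLuc and 532, 466 and 464 in siTARDBP, with no overlap, and the log2 difference was -0.36 (standard error 0.11, limma adjusted p = 0.040). ABCB6, a porphyrin transporter, had 360, 337 and 383 units in siLuc and 331, 210 and 219 in siTARDBP, also with no overlap, and a log2 difference of -0.40 (standard error 0.10, limma adjusted p = 0.015). These 4 calls were less firm than that of MAFG. Adjusted p was above 0.05 in 5 of 19 other settings for GSS and for CYP1B1, in 7 for BLVRB and in 4 for ABCB6, with the same direction throughout. BLVRA, biliverdin reductase A, named here after its values were seen, had a log2 difference of -0.077 (limma adjusted p = 0.69).

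By list, 1 of 6 tested NRF2 regulators was higher (MAFG), and 1 of 14 glutathione genes was higher (GSS). In heme and iron handling 1 of 7 was lower, and in detoxification and export 1 of 10 was higher and 1 lower. In limma, 0 of 11 thioredoxin and peroxiredoxin genes, 0 of 5 genes of NADPH supply and 0 of 3 superoxide and peroxide enzymes passed. At an unadjusted p under 0.05 the lists held 2 regulators, 3 glutathione genes, 2 thioredoxin and peroxiredoxin genes, 1 of NADPH supply, 3 of heme and iron handling, 2 of detoxification and export and 1 superoxide and peroxide enzyme. These 14 make up 25% of the 56 genes, against 26.7% of all 9340 tested genes at the same unadjusted threshold. The 23 genes with a probe but no test include SLC7A11, the cystine transporter, GPX2 and the aldo-keto reductases AKR1B10, AKR1C1, AKR1C2 and AKR1C3, which are known NRF2 targets.

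Just outside the threshold were 3 genes with the largest remaining differences. SOD2, the mitochondrial superoxide dismutase, had a log2 difference of -0.36 (limma adjusted p = 0.067). MSRA, which repairs oxidised methionine, had -0.32 (limma adjusted p = 0.053), and SQSTM1, the autophagy receptor p62 that binds KEAP1, had -0.30 (limma adjusted p = 0.0502).

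**Figure D3:**
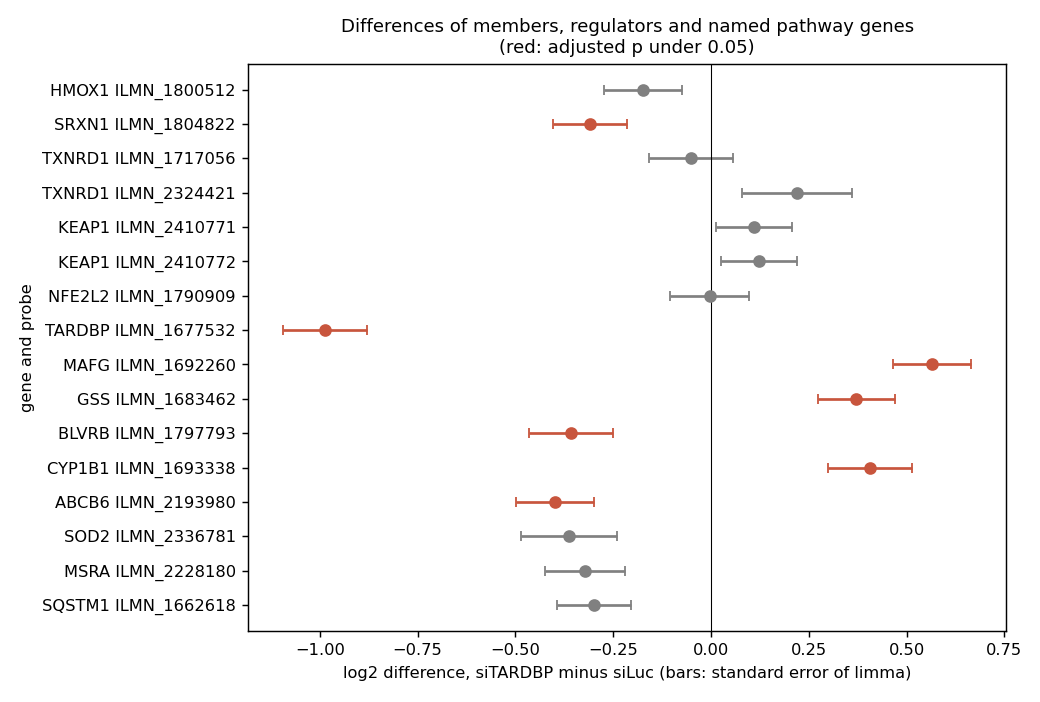
Log2 difference of siTARDBP minus siLuc with limma's standard error for the tested probes of the members, the regulators, TARDBP and the named pathway genes, red where adjusted p is under 0.05. TARDBP is at -0.99, SRXN1 at -0.31, HMOX1 at -0.17 and MAFG at 0.57.

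**Figure D4:**
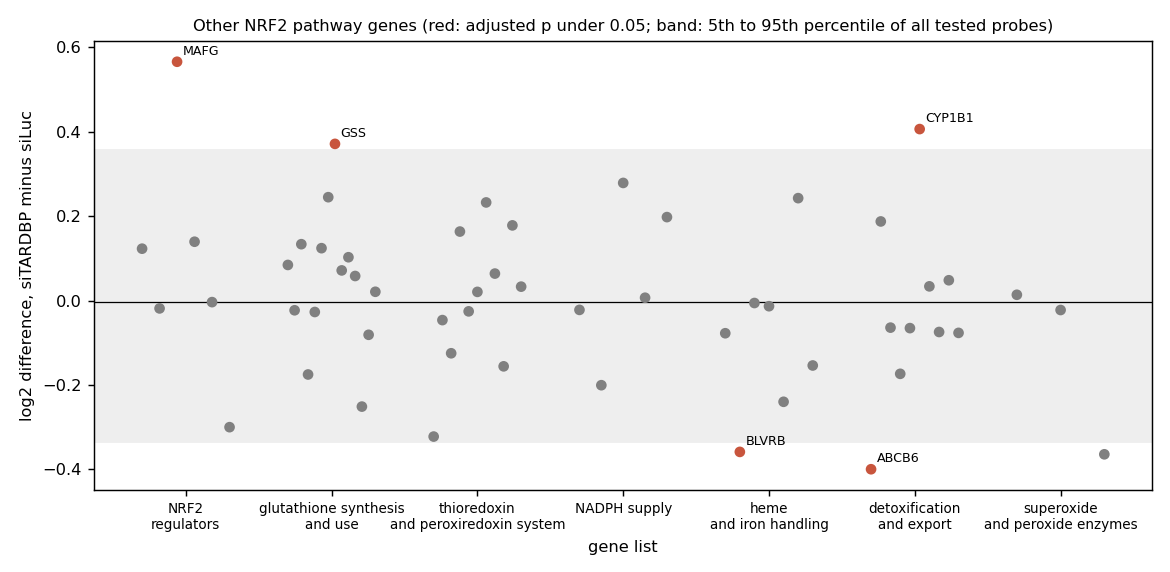
Log2 difference of each of the 56 tested pathway genes by list, red where adjusted p is under 0.05, over a grey band from the 5th to the 95th percentile of all 15201 tested probes (-0.33 to 0.36). The 5 red genes are 3 above and 2 below 0, and most others lie inside the band.

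The probes whose normalised levels followed a member most closely over the 6 arrays were found by Pearson's r, as a description over few arrays that share 2 groups. For SRXN1 they were PANK2, KRT34 and THUMPD1, each with r of 0.99, and 437 of 12311 named probes had r above 0.9. For HMOX1 they were BABAM1, SRFBP1 and LDHA, with r of 0.98 to 0.99, and for TXNRD1 XPO1, EFR3A and HCCS, with r of 0.97 to 0.99. Above 0.9 lay 149 of 12311 named probes for HMOX1 and 69 of 12310 for TXNRD1. For NQO1, whose values lie near background, USH1G, CDC5L and SLC25A42 had r of 0.99, and 131 of 12312 named probes had r above 0.9. Among the members themselves, HMOX1 had r of 0.82 with SRXN1 and 0.76 with TXNRD1, while SRXN1 and TXNRD1 had r of 0.34, all over 6 arrays. NQO1 had r of 0.27 with HMOX1, 0.31 with SRXN1 and -0.21 with TXNRD1. The array siLuc replicate 1 was the highest for HMOX1, SRXN1 and TXNRD1 alike, so these values lean on 1 array.

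**Figure D5:**
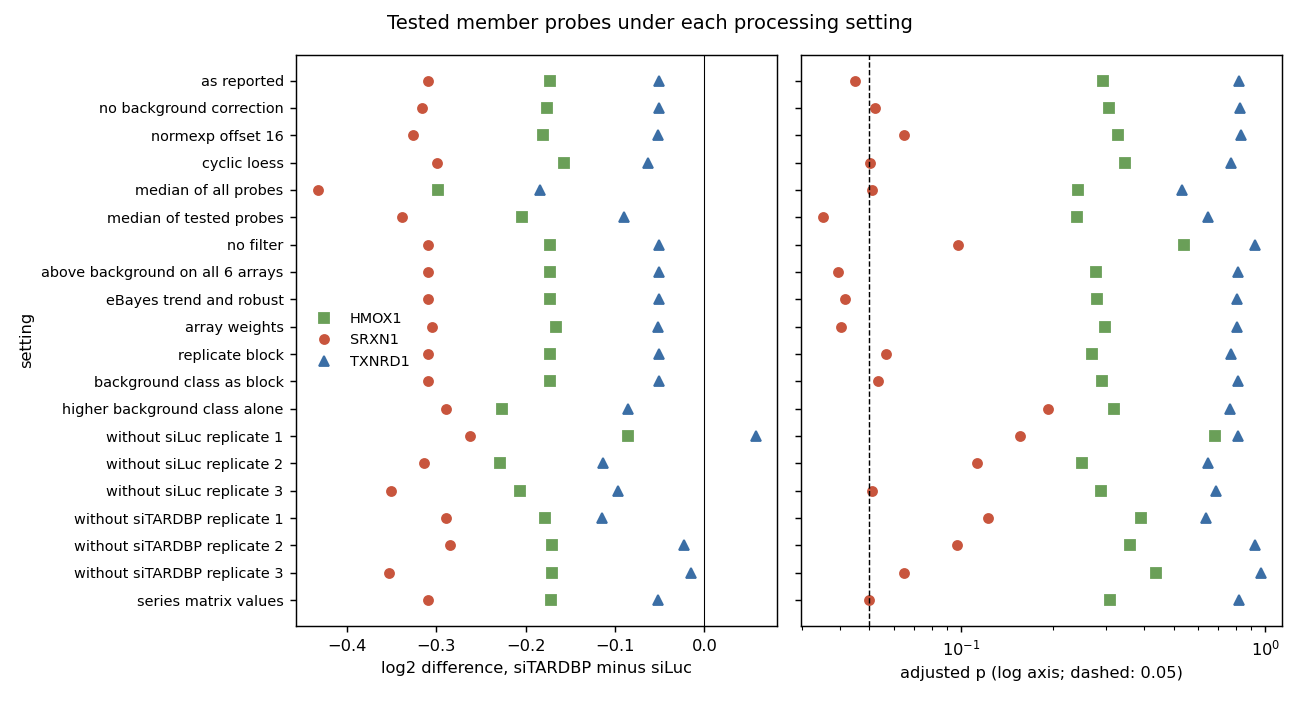
Log2 difference (left) and adjusted p (right, log axis, dashed line at 0.05) of the 3 tested members in the reported setting and 19 others. SRXN1 stays below 0 throughout with adjusted p between 0.035 and 0.19, and HMOX1 and TXNRD1 stay above 0.05 throughout, with TXNRD1 at 0.057 on the log2 scale without siLuc replicate 1.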

How the data were processed

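The authors deposited linear, non-normalized probe intensity values of 47231 probes, exported with BeadStudio per the submitters' processing notes. No version or background subtraction is recorded in the labels. Their deposited value table holds log2 values that rank probes as the intensities do. These were taken as quantile-normalised. All 6 columns share a median of 6.121 and differ by at most 0.26 from log2 quantile-normalised intensities. That table served as an alternative.

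Background was corrected by normexp (offset 50), arrays were quantile-normalised and log2 values were tested with limma 3.58.1 (R 4.3.3), 2 groups without a block, over 15201 probes above a background level estimated per array. The offset compresses fold changes. Of 47231 probes, 30113 had 1 gene symbol in the platform annotation, 8 several and 17110 none. On simulated arrays (15015 probes tested), limma called 2 of 50 simulated 1.2-fold changes, 24 of 50 at 1.5-fold and 39 of 50 at 2-fold, and the median 1.5-fold change was recovered as 1.37-fold. The number of arrays limits the precision.

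Named were all probes of the 4 genes and of TARDBP, the genes NFE2L2, KEAP1 and BACH1, pathway genes past the threshold, the 3 largest differences among those not past it, and for each member the 3 probes most like it. MAFF, BLVRA and the genes named as not tested were added after their values were seen. The members and lists were chosen with earlier results of these data known. Alternatives changed background correction, normalisation, filter, test settings, blocks, threshold and arrays.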

Additional observations from a re-analysis of the deposited data

How the results depend on the processing

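The 3 members not called kept their side of the threshold, or stayed untested, in all 19 alternatives, except that NQO1 was tested when no filter was applied (adjusted p = 0.85). HMOX1 ranged from -0.30 to -0.085 and NQO1 from -0.17 to -0.0012 on the log2 scale. TXNRD1 turned to 0.057 without siLuc replicate 1 (leaving out 1 array gave -0.11 to 0.057). SRXN1 lost its call, with these log2 differences, without background correction (-0.32), with an offset of 16 (-0.33), under cyclic loess (-0.30), under scaling by the median of all probes (-0.43), without a filter (-0.31), with the background class as a block (-0.31) and in the higher background class alone (-0.29). Leaving out 1 array gave -0.35 to -0.26 for SRXN1. The deviations of same-numbered arrays correlated by 0.11, 0.10 and -0.0017, against -0.16 to 0.064 for differently numbered arrays of the 2 groups. All were weak, and the numbers were not taken as pairs, though 0.11 and 0.10 were the highest of these values. With the replicate block SRXN1 had -0.31 (adjusted p = 0.057), and 1742 probes and 6 pathway genes passed.

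The count of 1695 probes fell to 1016 (282 higher) under scaling by the median of all probes, 844 in the higher background class alone, 765 at an adjusted p of 0.01 and 335 with a minimum of 1.5-fold, and leaving out 1 array gave 954 to 1794. The lowest came without siLuc replicate 2, and without siTARDBP replicate 3 it was 969. With array weights the count of probes was 1884. The count of 5 pathway genes became 1 in the higher background class alone, 1 at an adjusted p of 0.01 and 0 with a minimum of 1.5-fold in limma (14 at an unadjusted p under 0.05, 25% against 26.7% of all tested genes). It was 2 to 6 with 1 array left out, and 2 each without siLuc replicate 2, siLuc replicate 3 or siTARDBP replicate 3. The same count was 7 (3 higher, 4 lower) under cyclic loess and under scaling by the median of tested probes. It was also 7 (3 higher, 4 lower), out of 53 tested, with probes above background on all 6 arrays. The stricter thresholds lower counts by construction, and for the others the cause was not tested. Signal over background limits NQO1, BACH1 and the 23 untested pathway genes.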
